A study of Bos taurus with 9 samples.

Results

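Among 24616 bovine gene identifiers, 5 were proposed as at or near 0 in MII oocytes and IVF embryos and raised in all 3 libraries of SCNT embryos. For 26 of their 30 values in IVF and MII libraries this meant under 1 FPKM, and the highest, ENSBTAG00000012370 in MII replicate 3, was 5.40 FPKM. They are ENSBTAG00000012370, ENSBTAG00000042662, ENSBTAG00000031194, ENSBTAG00000003505 and ENSBTAG00000047022. All 5 were found in the table. The genes were chosen by their FPKM values in all 9 libraries (fragments counted per kilobase of a transcript and set against all fragments of its library), so every expression value below describes them and none is tested. The identifiers are not paired with names in the file, and 0 of 24616 matched the bovine gene table used here, so no function, position or sequence is given for any of the 5.

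The libraries came from pools of Holstein oocytes and embryos. MII oocytes are mature eggs halted in the second meiotic division, pooled by 3 (3 libraries). The labels of this group disagree, since they give the stage as oocyte and the tissue as wild embryos, and the libraries are taken here as oocytes. IVF embryos arise from eggs fertilised in vitro, and SCNT embryos from nuclear transfer of a somatic cell into an egg. Both were taken at the 2-cell stage and pooled by 6 (3 libraries each). The labels give no donor cell type, sire, age, sex or culture condition, and leave unsaid whether pools of 1 group were made separately, so the spread between libraries may be technical. Since no gene names were paired, the labelled tissues were not checked against marker genes.

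In an early cattle embryo most RNA was made by the oocyte and stored, and the main wave of transcription from the embryonic genome comes after the 2-cell stage. In a cloned embryo the genome comes from a somatic cell whose chromatin was set for another program, and reprogramming by the egg can be incomplete. Genes present in cloned embryos and near 0 in both eggs and fertilised embryos are therefore looked at as candidates for expression from the transferred nucleus. No library of donor cells was used here, so RNA made after the transfer and RNA brought in with the donor cell cannot be told apart.

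The libraries were close in depth, but their FPKM totals differed by group. Steps between low values placed 8 libraries at 93.6% to 100% of the deepest and MII replicate 1 at 79.7%. FPKM totals ran from 1276123 to 1294594 in SCNT, from 1197565 to 1206014 in IVF and from 1153912 to 1386979 in MII libraries. Because SCNT totals lay above IVF totals, each gene is given below also after rescaling to a common total. Over the 15590 genes above 0 in at least 1 library, the median difference of SCNT minus IVF on the log2(FPKM + 1) scale was -0.11. Median-ratio scaling and quantile normalization each brought it to -0.01, and rescaling the libraries to 1 common sum of 1000000 to -0.15. This sum lies below the total of every library. All values therefore fall with it, in each group, and count for less against the 1 added before taking logs.

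All 5 genes had every SCNT library above every IVF and every MII library. This was part of how they were chosen. Among the 15590 genes, 3.55% had all SCNT libraries above all IVF libraries, 29.2% had them above all MII libraries and 2.21% (345 genes) had them above both. With each of the 3 other scalings the groups also did not overlap for the 5 genes. For the 2 genes listed at 0 in all 6 others this was fixed, since a listed 0 stays 0 under each scaling.

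**Figure D1:**
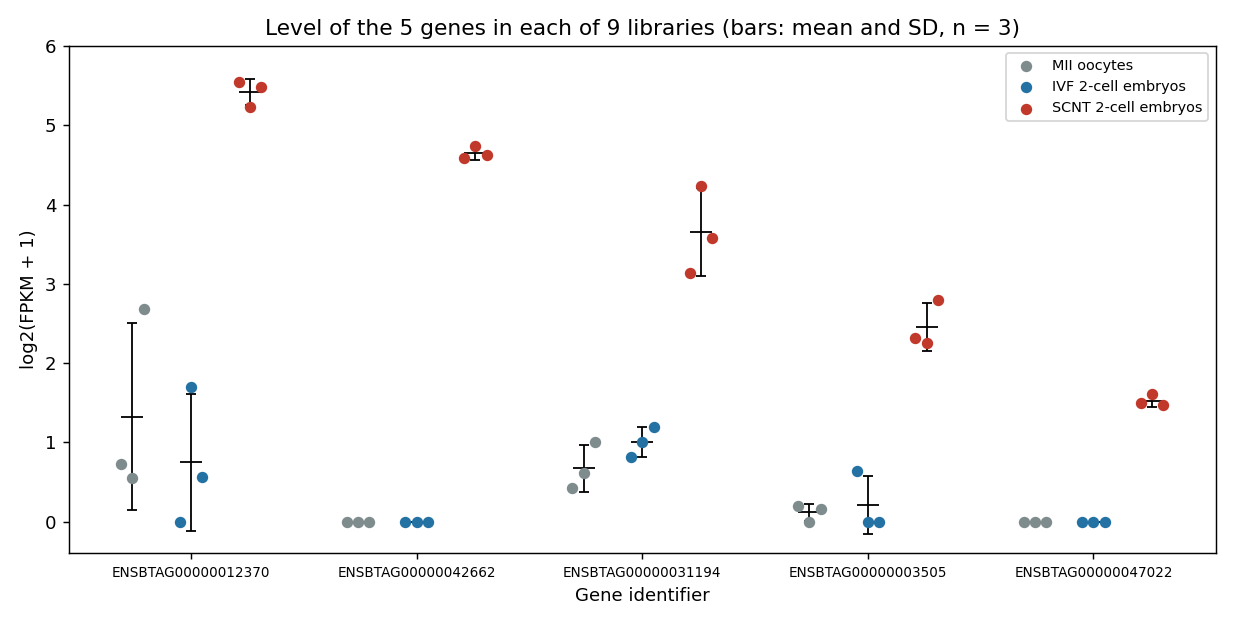
Level of the 5 genes in each library, as log2(FPKM + 1), with the gene identifiers on the horizontal axis. Points are libraries and bars are the mean and SD of 3 libraries, and for each gene the 3 SCNT points lie above all 6 other points, which sit at 0 for ENSBTAG00000042662 and ENSBTAG00000047022.

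The name "gained only in SCNT" held in the strict sense for 2 of the 5 genes. ENSBTAG00000042662 and ENSBTAG00000047022 were listed at 0 in all 6 IVF and MII libraries. ENSBTAG00000003505 was above 0 in 3 of these 6 libraries, ENSBTAG00000012370 in 5 and ENSBTAG00000031194 in 6. Over the 5 genes and 6 libraries, 16 of 30 values were listed at 0, of which 9 of 15 were in IVF and 7 of 15 in MII libraries. A further 10 values lay between 0 and 1 FPKM, and 4 reached 1 FPKM. A listed 0 may be a failed estimate as well as an absence of reads, since the table gives no counts.

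ENSBTAG00000012370 was the most abundant of the 5. Its level was 45.7, 36.7 and 43.6 FPKM in replicates 1, 2 and 3 of SCNT embryos, at 0, 2.23 and 0.474 FPKM in the IVF replicates, and at 0.662, 0.467 and 5.40 FPKM in the MII replicates. MII replicate 3 was thus the highest library outside SCNT, and IVF replicate 2 the next. The mean was 42.0 ± 4.73 FPKM (SD, n = 3) in SCNT, 0.902 ± 1.18 (SD, n = 3) in IVF and 2.18 ± 2.79 (SD, n = 3) in MII libraries. The difference on the log2(FPKM + 1) scale was 4.67 for SCNT minus IVF (pooled SD 0.621) and 4.10 for SCNT minus MII (pooled SD 0.841). Rescaled to a common total, these were 4.40 and 3.92. The size of both differences depends on the pseudocount. Without rescaling, they were 6.36 and 4.97 with a pseudocount of 0.1, and 3.01 and 2.77 with a pseudocount of 5. The lowest SCNT library was 6.79 times the highest other library, and 16.4 times without MII replicate 3. In the SCNT libraries this gene lay above 90.0% to 91.7% of all identifiers. In the MII libraries, where each value was above 0, the range was 61.5% to 78.4%. These shares count identifiers at 0, which make up much of them. Of 24616 identifiers, 12949 to 13477 were above 0 in an SCNT library and 11766 to 12465 in an MII library.

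ENSBTAG00000042662 was the next in level, and outside SCNT embryos it had no value above 0. Its level was 23.0, 25.8 and 23.6 FPKM in replicates 1, 2 and 3 of SCNT embryos and was listed at 0 in IVF replicates 1, 2 and 3 and in MII replicates 1, 2 and 3. Its SCNT mean was 24.1 ± 1.48 FPKM (SD, n = 3). It was 18.8 FPKM after rescaling to a common total, which lowers the values of every library, and 25.5 FPKM with median-ratio scaling. No fold is given against groups listed at 0. The 3 SCNT values differed by a factor of 1.12 between the highest and the lowest library, the closest agreement among the 5 genes. In these libraries it lay above 87.3% to 87.8% of all identifiers, those at 0 included.

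ENSBTAG00000031194 was present at a low level in every library outside SCNT. Its level was 7.79, 17.9 and 10.9 FPKM in replicates 1, 2 and 3 of SCNT embryos, at 0.754, 1.01 and 1.30 FPKM in the IVF replicates, and at 0.338, 0.524 and 0.9999 FPKM in the MII replicates. The IVF and MII libraries overlapped in a range well under the lowest SCNT value. The mean was 12.2 ± 5.15 FPKM (SD, n = 3) in SCNT, 1.02 ± 0.271 (SD, n = 3) in IVF and 0.621 ± 0.341 (SD, n = 3) in MII libraries. On the log2(FPKM + 1) scale the difference was 2.65 for SCNT minus IVF (pooled SD 0.416) and 2.97 for SCNT minus MII (pooled SD 0.445). Rescaled to a common total, these differences were 2.44 and 2.76. Their size depends on the pseudocount. Without rescaling, they were 3.40 and 4.12 with a pseudocount of 0.1, and 1.47 and 1.57 with a pseudocount of 5. The lowest SCNT library was 6.01 times the highest other library, IVF replicate 3. This ratio ran from 6.01 to 8.45 when 1 library was left out, which can only keep or raise it. The gene had the widest SCNT range of the 5, a factor of 2.29 between replicates 2 and 1.

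ENSBTAG00000003505 was at a few FPKM in SCNT embryos and at traces elsewhere. Its level was 3.98, 3.75 and 5.97 FPKM in replicates 1, 2 and 3 of SCNT embryos, at 0.553, 0 and 0 FPKM in the IVF replicates, and at 0.150, 0 and 0.121 FPKM in the MII replicates. IVF replicate 1 was the highest library outside SCNT. The mean was 4.57 ± 1.22 FPKM (SD, n = 3) in SCNT, 0.184 ± 0.319 (SD, n = 3) in IVF and 0.0902 ± 0.0795 (SD, n = 3) in MII libraries. The difference on the log2(FPKM + 1) scale was 2.24 for SCNT minus IVF (pooled SD 0.335) and 2.33 for SCNT minus MII (pooled SD 0.226). The pseudocount of 1 exceeds the levels outside SCNT, so the size of this difference depends on it, at 4.61 and 4.69 with a pseudocount of 0.1 and 0.88 and 0.90 with a pseudocount of 5. Rescaled to a common total, the differences were 1.99 and 2.07, and the latter moved by more than the pooled SD. The common total lies below that of every library, so all values fall against the pseudocount of 1, whatever the group. The lowest SCNT library was 6.79 times the highest other library, and 25.0 times without IVF replicate 1.

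ENSBTAG00000047022 had the lowest SCNT level of the 5 and no value above 0 elsewhere. Its level was 1.81, 2.04 and 1.77 FPKM in replicates 1, 2 and 3 of SCNT embryos and was listed at 0 in all 3 IVF and all 3 MII replicates. Its SCNT mean was 1.88 ± 0.146 FPKM (SD, n = 3). It was 1.46 FPKM after rescaling to a common total, which lowers the values of every library, and 1.99 FPKM with median-ratio scaling. In the SCNT libraries it lay above 67.7% to 69.0% of all identifiers, a share made up largely of identifiers at 0. Its 3 SCNT values lay within a factor of 1.15.

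In SCNT embryos the order of levels, per length of transcript, was the same in each of the 3 libraries. ENSBTAG00000012370 came first, then ENSBTAG00000042662, ENSBTAG00000031194, ENSBTAG00000003505 and ENSBTAG00000047022, and the replicate ranges of neighbours in this order did not overlap. No SCNT library was high for the whole group. SCNT replicate 2 was the highest for 3 genes, and replicates 1 and 3 for 1 gene each, while the lowest was replicate 1 for 2 genes, replicate 2 for 2 and replicate 3 for 1. A pooled library cannot show whether all 6 embryos carried the RNA or a few carried much of it, nor whether fewer cells or less RNA per cell lowers a level.

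The spread between SCNT replicates differed among the 5 genes. The SD was 6.12% of the mean for ENSBTAG00000042662 and 7.78% for ENSBTAG00000047022, the pair listed at 0 elsewhere. It was 11.3% for ENSBTAG00000012370, 26.7% for ENSBTAG00000003505 and 42.2% for ENSBTAG00000031194. Genes within a factor of 2 of the same SCNT mean give the scale for these values. The median there was 12.2% for the 2231 genes near ENSBTAG00000042662, of which 18.9% had a smaller spread, and 24.0% for the 2596 genes near ENSBTAG00000047022, of which 7.74% had a smaller spread. Near ENSBTAG00000031194 the median was 13.7%, and 96.5% of 2531 genes had a smaller spread. ENSBTAG00000012370 lay near the middle, with 49.1% of 1893 genes below it, and ENSBTAG00000003505 had 73.4% of 2709 below it.

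**Figure D2:**
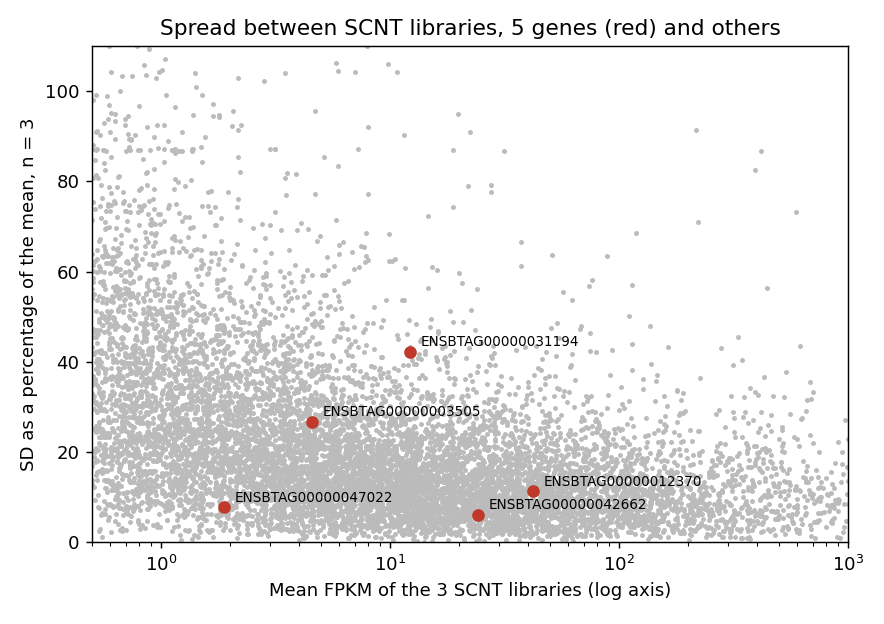
SD of the 3 SCNT libraries as a percentage of their mean (vertical axis, drawn to 110%) against that mean in FPKM (log axis, 0.5 to 1000), with each gene a grey point and the 5 genes in red. ENSBTAG00000042662 (6.12%) and ENSBTAG00000047022 (7.78%) lie in the lower part of the cloud, inside it, and ENSBTAG00000031194 (42.2%) near its upper edge.

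The depth behind these values is known in relative terms only, but the lowest values of a gene give a rough scale. Where values step by whole reads, the lowest value above 0 is worth at least 1 read. After adjustment for relative depth, the lowest value of ENSBTAG00000003505 was in MII replicate 3, MII replicate 1 was at 1.00 times it, and the SCNT libraries were at 30.0 to 50.0 times it. For that gene, 4 of 5 other values above 0 lay within 0.05 of a whole multiple, the exception being IVF replicate 1 at 4.50 times. The relative depth is too approximate to tell whole multiples at 30.0 to 50.0 times, so the SCNT values do not show a step. The SCNT libraries were at 80.0 to 103.6 times the lowest value of ENSBTAG00000012370 and at 28.6 to 63.3 times that of ENSBTAG00000031194. For these genes 2 of 7 and 0 of 8 values lay near whole multiples. The size of a step, and so the number of reads, is not clear for any of the genes with low values. ENSBTAG00000042662 and ENSBTAG00000047022 have no low value to serve as a scale, and the number of reads behind them is unknown.

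The same pattern was then counted over the whole table. With a lowest SCNT library of at least 5 FPKM that was at least 4 times the highest of the other 6 libraries, 3 genes had it (0.0192% of 15590). All 3 were among the 5, namely ENSBTAG00000012370, ENSBTAG00000042662 and ENSBTAG00000031194. With a lowest SCNT library of at least 1 FPKM, the count was 5 (0.0321%), exactly the 5 genes described here. Just inside this limit lay ENSBTAG00000031194, at 6.01 times. Just outside lay a gene at 1.76 to 2.08 FPKM in the SCNT libraries and 0.373 to 0.741 FPKM in the IVF libraries, at 2.37 times. Between 2.37 and 6.01 times there was no gene with a lowest SCNT library of at least 1 FPKM. The 5 genes and the limits were chosen with these values known, so neither the match nor the gap is independent of that choice.

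**Figure D3:**
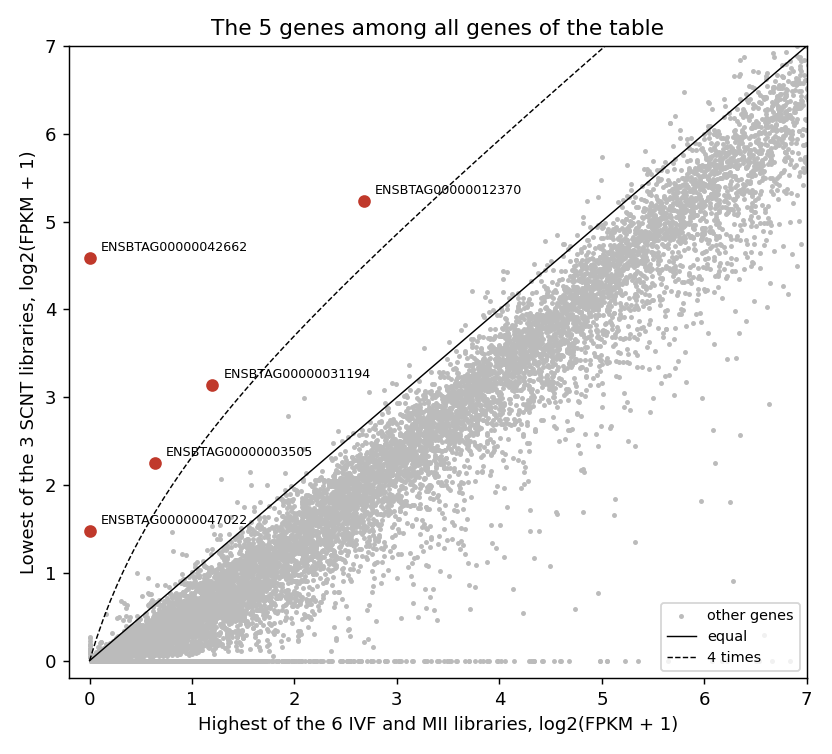
Lowest SCNT library (vertical axis) against the highest of the 6 IVF and MII libraries (horizontal axis), both as log2(FPKM + 1), for genes above 0 in either, with axes drawn to 7. The 5 genes (red) lie above the dashed line of 4 times, apart from the cloud of other genes (grey), and the solid line marks equal levels.

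Counting the mirror patterns showed how often another group stood out in this way. With a lowest library of at least 5 FPKM and 4 times the other 6, 0 genes were raised in IVF embryos and 9 in MII oocytes, against 3 in SCNT embryos. From 1 FPKM, at 4 times, the numbers were 1 for IVF, 10 for MII and 5 for SCNT. Again from 1 FPKM, 10 genes were raised in SCNT, 6 in IVF and 93 in MII libraries at 2 times, and 2, 1 and 0 at 8 times. A rule by level in place of ratio, chosen after the data had been seen, gave another picture. With a lowest library of at least 1 FPKM and all 6 others at or below 1 FPKM, there were 8 genes for SCNT (0.0513% of 15590, with 3 of the 5 genes among them), 25 for IVF and 4 for MII. Under this rule the median of the lowest library was 1.56 FPKM for the 8 SCNT genes and 1.25 FPKM for the 25 IVF genes. In its lowest IVF library, each of the 25 IVF genes was at 1.85 FPKM or less. The lowest SCNT library was at 1.77 FPKM for ENSBTAG00000047022 and at 23.0 FPKM for ENSBTAG00000042662. With the 6 others at or below 0.5 FPKM, 2 genes were left for SCNT, ENSBTAG00000042662 and ENSBTAG00000047022, and 1 for IVF.

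**Figure D4:**
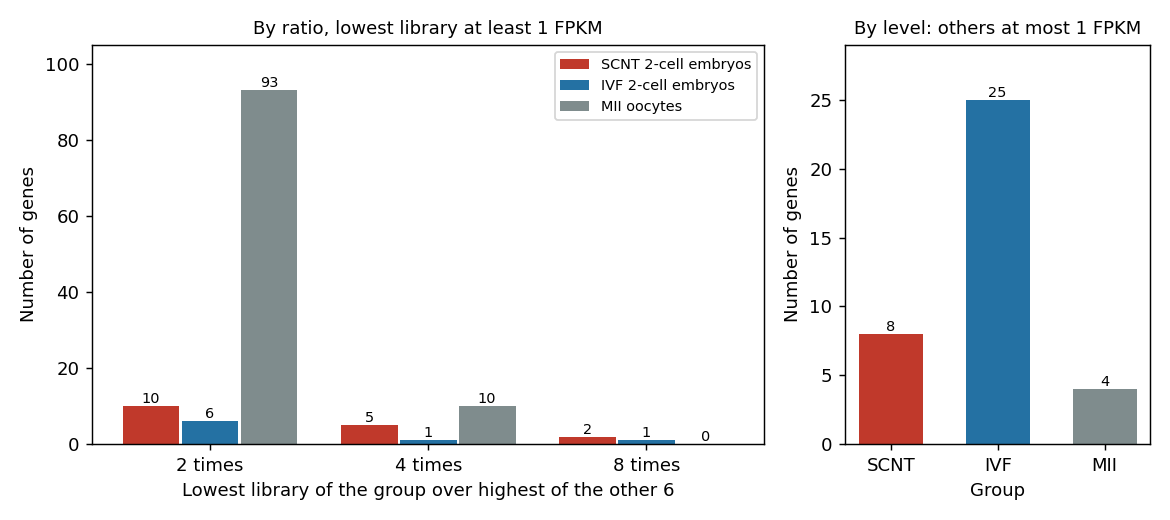
Number of genes raised in 1 group against the other 6 libraries, with bars for SCNT, IVF and MII. The left panel requires a lowest library of at least 1 FPKM and a ratio of 2, 4 or 8 times (5 SCNT genes at 4 times), and the right panel replaces the ratio by a highest other library of at most 1 FPKM (8 SCNT, 25 IVF and 4 MII genes).

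Being listed at 0 in all libraries outside SCNT was shared with other genes at lower SCNT levels. In all, 18 genes (0.115% of 15590) were above 0 in every SCNT library and at 0 in all others, and 15 genes had this pattern for IVF and 1 for MII. The 16 SCNT genes other than the pair had a median of 0.0988 FPKM in their lowest SCNT library, and their highest single value was 0.839 FPKM. Of the 15 IVF genes, 1 was at 1.45 FPKM or more in every IVF library, and the highest single value was 5.51 FPKM. ENSBTAG00000042662 was thus the sole gene of these 34 with at least 5 FPKM in all 3 libraries of its group.

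**Figure D5:**
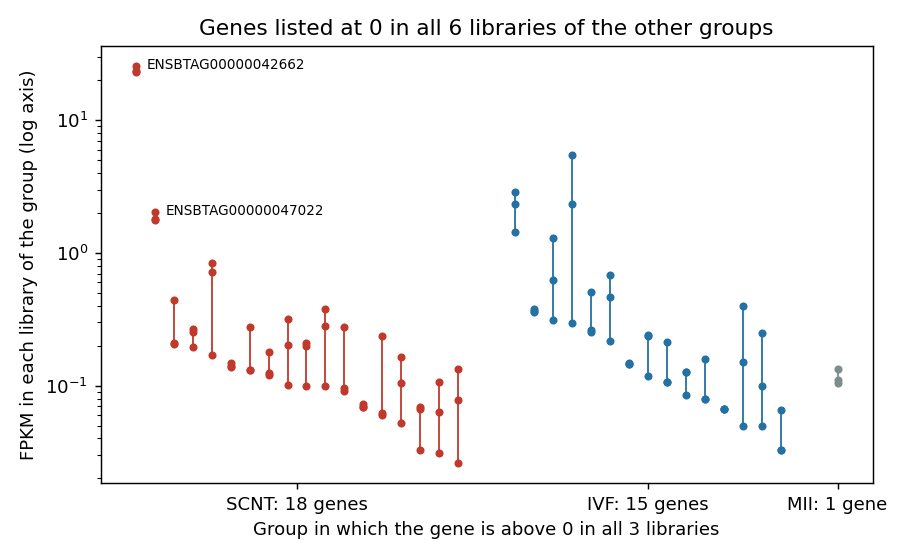
FPKM (log axis) in the 3 libraries of 1 group for genes listed at 0 in the 6 libraries of the other groups, each gene a vertical line joining its lowest and highest library. ENSBTAG00000042662 (23.0 to 25.8) and ENSBTAG00000047022 (1.77 to 2.04) stand above the other 16 SCNT genes, whose highest value is 0.839.

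The 5 genes followed each other closely over the 9 libraries, which the choice itself builds in. Over the 10 pairs, Pearson's r of log2(FPKM + 1) ran from 0.903 to 0.9995 and Spearman's rho from 0.525 to 0.976. These r values rest on the shared step between the SCNT libraries and the rest. Among 8372 other genes with a lowest SCNT library of at least 1 FPKM, the profile most like theirs was that of ENSBTAG00000015796, with a mean r of 0.944 over the 5 genes. It was at 3.62, 3.21 and 3.55 FPKM in the SCNT, 1.44, 0.941 and 1.21 FPKM in the IVF and 1.20, 0.913 and 0.860 FPKM in the MII replicates. The next was ENSBTAG00000011413 (mean r 0.933), at 5.91, 6.04 and 7.57 FPKM in the SCNT, 2.82, 1.88 and 1.21 FPKM in the IVF and 1.88, 1.71 and 1.63 FPKM in the MII replicates. Both had every SCNT library above the other 6, with far smaller ratios of 2.23 and 2.10 times. By Spearman's rho they ranked 274 and 256 of 8372, so the likeness depends on the measure.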

How the data were processed

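RNA from pools of bovine oocytes and embryos was sequenced after cDNA synthesis, tailing and amplification, per the labels' protocols. The authors deposited 1 table of FPKM values for 24616 identifiers and 9 libraries, with the unit taken from the table's name. Per the submitters' processing notes, the tools were RSEM 1.2.12, Bowtie2 2.2.5, StringTie 1.0.4, HISAT 0.1.6 and bcl2fastq 2.16, with build UMD3.1. The sources used here do not say which tool made the values. FPKM is relative to each library, so a change in RNA per embryo is not seen, and amplification from few cells adds noise at low levels. No strand-marking step is described, so overlapping antisense genes and near-identical copies are uncertain.

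Samples were grouped by title. Values were described per library, and differences were taken on the log2(FPKM + 1) scale, where changes of genes near or under 1 FPKM come out too small. The pooled SD is the root of the mean of both groups' variances. Relative depth came from the common log2 ratio of values under 0.5 FPKM between pairs of libraries, with 12.4% to 24.1% of genes within 0.03 of it, so it is approximate. Reads were not recovered and no counting interval is given. The counts over the table used 15590 genes above 0 in any library, and no filter on low values was applied to the 5 genes. The counting and scaling steps were tested on simulated data. No test of significance was run.

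The 5 genes, the rules for the counts and the alternatives were chosen with earlier results of these data known. The genes named were the 5 and the 2 others with the highest mean Pearson's r with them. Marker lists of fibroblasts, cumulus cells, oocytes and early embryos were not used, because no identifier could be paired with a name. Alternatives were other pseudocounts (0.1 and 5), rescaling to a sum of 1000000, median-ratio scaling (from genes averaging 10 FPKM or more), quantile normalization, other limits and leaving out each library. Python 3.11.15, numpy 2.4.6, pandas 2.3.3, scipy 1.17.1 and matplotlib 3.10.9 were used.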

Additional observations from a re-analysis of the deposited data

How the results depend on the processing

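For the 3 genes with values above 0 outside SCNT embryos, 84 log2 differences were taken under 14 alternatives. Some of the 84 could not move. Leaving out an MII library does not enter SCNT minus IVF, nor an IVF library SCNT minus MII. Of the 84, 13 moved by more than the pooled SD, 12 of them with the pseudocounts. The other came with the common sum, where the pseudocount weighs more because all values fall. The direction of the differences and the separation of SCNT from the other 6 libraries were set by the choice of genes. Another pseudocount or 1 library left out could thus not change them. Nor could a scaling for the pair listed at 0 elsewhere, since a listed 0 stays 0. For the 3 other genes the scalings could have in principle, from ratios of 6.01 to 6.79 times, and all stayed separated under each. The number of genes raised in 1 group depended on the limits. Starting from 5 FPKM and 4 times, it was 3 for SCNT. Changing 1 limit at a time, it was 5 with a floor of 1 FPKM and 4 times, 6 at 5 FPKM and 2 times, and 1 at 5 FPKM and 8 times. By level, with others at most 1 FPKM, it was 8. The rule by level, here and for IVF and MII, replaced the ratio and also lowered the floor to 1 FPKM. For IVF the number was 0, then 1 with a floor of 1 FPKM, 2 at 5 FPKM and 2 times, and 1 after rescaling to a common total. By level it was 25 with others at most 1 FPKM and 1 with others at most 0.5 FPKM. For MII it was 9, then 88 at 5 FPKM and 2 times, 0 at 5 FPKM and 8 times, 4 with others at most 1 FPKM and 0 with others at most 0.5 FPKM. Leaving out 1 library gave 3 to 5 genes for SCNT, 0 to 5 for IVF and 9 to 15 for MII, fewer libraries making the condition easier to meet. The number of genes at 0 elsewhere was 18 for SCNT, 15 for IVF and 1 for MII, and 2, 1 and 0 from 1 FPKM and 1, 0 and 0 from 5 FPKM. With 1 library left out it was 21 to 59, 21 to 55 and 1 to 13. No paired analysis was possible because no result comes from a test. Depth limits the lowest values, where 1 read can separate a listed 0 from a trace.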
